A study of Homo sapiens with 21 samples.

Results

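The 2 lists of open chromatin compared here came from ATAC-seq, in which a transposase cuts accessible DNA, of 2 human melanoma lines, SKMEL-147 and A375-GFP. After regions off the autosomes and the X chromosome were set aside, the SKMEL-147 list held 163102 regions and the A375-GFP list 118398. These 281500 regions were part of 1120474 in the 15 region lists of the series. Regions that overlapped by at least 1 bp were counted as shared, and the others as present in SKMEL-147 only or in A375-GFP only. The comparison was made on the lists as deposited and again with each list held to its 118398 regions of highest −log10 q, called equal length below.

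The series studied silencing and overexpression of HOXD13, a HOX protein that patterns limbs, in 4 established melanoma lines (21 samples). A375-GFP is A375, a melanoma line that carries a BRAF mutation, with a GFP construct, and it was the counterpart of A375 with HA-tagged HOXD13. The labels name no construct for SKMEL-147. Cells were grown on plates with or without doxycycline, which induces the constructs, and its use is not given sample by sample. Each line had 1 library, so line, construct, doxycycline and library cannot be told apart, no difference could be tested, and all intervals below are 95% Wilson intervals that cover counting error only.

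Open chromatin marks promoters, which lie at gene starts, and enhancers and insulators, which can lie far from genes. Promoters of widely used genes are often rich in the CG dinucleotide and open in most cells, whereas distal regions differ more between cell states. Melanoma cells are commonly placed between a melanocytic state, in which MITF and SOX10 drive pigment genes such as TYR and DCT, and a dedifferentiated, invasive state associated with AP-1 and TEAD factors, AXL, EGFR and inflammatory cytokines.

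The lists were not made alike in every respect. The A375-GFP list held a further 2747 regions on alternative copies of genome sequences, 876 of them (31.9%) on copies from chromosome 6, and the SKMEL-147 list held none. On the primary chromosome 6, the MHC (28 to 34 Mb) held 224 A375-GFP regions, which was 3.82% of that chromosome's regions, and 722 SKMEL-147 regions (8.38%). A region of the MHC missing from the A375-GFP list is therefore no measure of closed chromatin. SKMEL-147 regions were narrower (median 355 bp against 584 bp) and covered 72.2 Mb against 79.4 Mb. Their median fold, the authors' enrichment over background, was 9.42 against 6.92, and folds were used only within a list. The lists hold no counts, so the depth is unknown.

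The promoters of 7 genes with a start open in 1 line are shown here as examples, chosen after their classes were seen, because the results below return to these genes and their motifs. MITF also has another start that was open in both lines. Each sequence is the 250 bases before the RefSeq start (GRCh38), 5′ to 3′ on the gene's strand. Capitals mark matches, on either strand, to TGANTCA (AP-1), GGAATG (TEAD), CATGTG (the M-box core bound by MITF), TGACGT (the CRE core bound by CREB), TATAAA (the TATA box) and the kappaB motif of NF-kappaB. The first 4, of cytokine and matrix genes on chromosomes 2, 4 and 6, were open in SKMEL-147 only, and the last 3, of the melanocytic genes MITF and DCT and a zinc-finger gene, in A375-GFP only.
IL1A, chr2:112784401-112784650, minus strand: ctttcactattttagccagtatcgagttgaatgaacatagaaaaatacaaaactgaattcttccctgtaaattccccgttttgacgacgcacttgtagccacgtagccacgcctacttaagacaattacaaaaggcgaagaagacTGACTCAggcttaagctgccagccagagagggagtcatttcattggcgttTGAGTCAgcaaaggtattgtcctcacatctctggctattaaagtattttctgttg
IL1B, chr2:112836780-112837029, minus strand: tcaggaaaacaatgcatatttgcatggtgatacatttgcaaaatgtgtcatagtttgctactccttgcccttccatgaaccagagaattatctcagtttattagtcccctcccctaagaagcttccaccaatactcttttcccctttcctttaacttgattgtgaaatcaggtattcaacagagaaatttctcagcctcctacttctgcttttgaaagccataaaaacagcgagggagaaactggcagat
CXCL5, chr4:73998678-73998927, minus strand: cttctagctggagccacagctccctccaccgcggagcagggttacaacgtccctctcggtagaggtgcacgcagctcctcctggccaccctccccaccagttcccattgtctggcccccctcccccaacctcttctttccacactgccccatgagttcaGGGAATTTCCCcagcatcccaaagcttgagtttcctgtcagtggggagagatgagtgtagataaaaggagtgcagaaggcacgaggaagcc
THBS2, chr6:169253847-169254096, minus strand: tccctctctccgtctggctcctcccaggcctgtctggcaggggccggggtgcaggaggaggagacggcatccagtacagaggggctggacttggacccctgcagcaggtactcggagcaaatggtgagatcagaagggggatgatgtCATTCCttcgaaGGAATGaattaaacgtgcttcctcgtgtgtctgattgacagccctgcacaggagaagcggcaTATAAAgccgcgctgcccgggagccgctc
MITF, start of the melanocyte isoform, chr3:69936342-69936591, plus strand: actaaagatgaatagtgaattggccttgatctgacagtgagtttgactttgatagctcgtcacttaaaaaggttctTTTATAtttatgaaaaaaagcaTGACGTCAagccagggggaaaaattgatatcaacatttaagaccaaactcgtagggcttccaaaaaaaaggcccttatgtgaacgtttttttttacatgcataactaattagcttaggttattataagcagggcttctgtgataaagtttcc
DCT, chr13:94479683-94479932, minus strand: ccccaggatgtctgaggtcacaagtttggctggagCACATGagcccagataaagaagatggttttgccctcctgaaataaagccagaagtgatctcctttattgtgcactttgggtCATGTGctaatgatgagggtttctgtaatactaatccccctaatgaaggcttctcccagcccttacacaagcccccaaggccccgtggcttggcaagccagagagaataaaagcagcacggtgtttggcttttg
ZNF582, chr19:56393535-56393784, minus strand: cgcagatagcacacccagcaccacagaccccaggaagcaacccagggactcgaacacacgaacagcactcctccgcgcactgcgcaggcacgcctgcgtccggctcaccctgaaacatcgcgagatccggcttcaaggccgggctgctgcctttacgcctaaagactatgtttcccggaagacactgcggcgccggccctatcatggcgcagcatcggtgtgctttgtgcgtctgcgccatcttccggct
The IL1A promoter held AP-1 matches 105 and 55 bases before the start. The CXCL5 promoter held overlapping kappaB matches from 91 bases before the start. The THBS2 promoter held a TATA box 29 bases and TEAD matches on opposite strands 103 and 91 bases before it. At MITF the capitals are a CRE match from 152 bases and a TATAAA match on the opposite strand from 174 bases before the start. DCT held M-box cores 215 and 134 bases before its start. IL1B and ZNF582 held none of these letters, and they differed in base content, with 1 and 23 CG dinucleotides in the 250 bases.

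As deposited, 76562 SKMEL-147 regions (46.9%, 46.7 to 47.2) were in SKMEL-147 only, and 35205 A375-GFP regions (29.7%, 29.5 to 30.0) were in A375-GFP only. The longer list thus had the larger private share. At equal length the shares were close to each other, with 44305 regions (37.4%) in SKMEL-147 only and 46026 (38.9%) in A375-GFP only. Shared regions numbered 86540 in the SKMEL-147 list and 83193 in the A375-GFP list as deposited, and 74093 and 72372 at equal length.

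Line-only regions were mostly the weaker ones of each list. Among 10 classes of rising −log10 q, the share in SKMEL-147 only went from 75.7% (75.1 to 76.4) in the weakest class to 8.90% (8.48 to 9.35) in the strongest. In the A375-GFP list it went from 63.6% (62.8 to 64.5) to 3.54% (3.22 to 3.89). At equal length 7.74% and 5.19% of the regions in the strongest classes were still line-only. These 916 SKMEL-147 and 615 A375-GFP regions were among the strongest of their list and overlapped no region of the other list at that length.

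**Figure D1:**
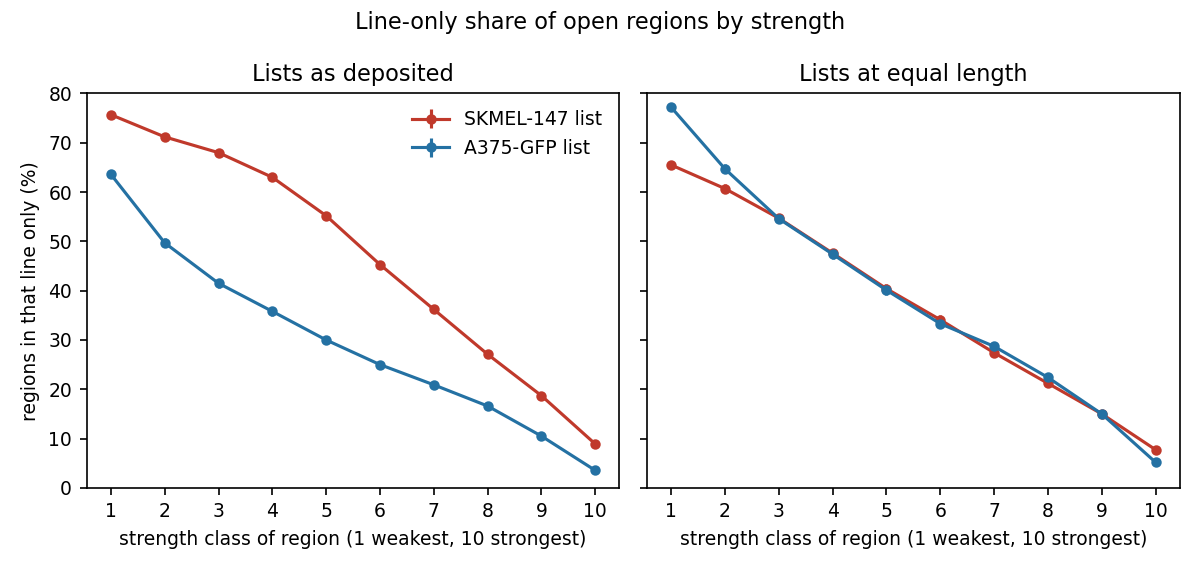
Percent of regions found in that line only (vertical axis) in 10 classes of rising −log10 q (horizontal axis) for the SKMEL-147 list and the A375-GFP list, as deposited (left) and at equal length (right); bars are 95% Wilson intervals, mostly smaller than the points. Every curve falls, from 63.6% or more in the weakest class to 8.90% or less in the strongest.

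Regions in 1 line lay away from gene starts. Of regions in SKMEL-147 only, 4.64% (4.50 to 4.79) had their midpoint within 2 kb of the start of a protein-coding gene, and of those in A375-GFP only 5.88% (5.64 to 6.13). Of shared regions 19.0% (SKMEL-147 list) and 18.1% (A375-GFP list) did. The median distance to the nearest start was 49220 bp for SKMEL-147 only, 52484 bp for A375-GFP only, and 27844 and 28625 bp for shared regions. A further 44.5% of regions in SKMEL-147 only and 42.3% of those in A375-GFP only lay inside a gene, and 50.9% and 51.8% lay between genes. At equal length the shares near a start were 4.27% and 6.40%, so the line-only regions of A375-GFP were somewhat more often near a start in both settings.

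The gap between shared and line-only regions was widest among strong regions. In the strongest class, 33.8% (33.0 to 34.5) of shared SKMEL-147 regions were near a start against 3.37% (2.56 to 4.43) of the 1452 in SKMEL-147 only. In A375-GFP these shares were 55.6% (54.7 to 56.5) and 8.59% (6.27 to 11.7), the latter over 419 regions. In the weakest class they were 12.8% and 6.15% in SKMEL-147, and 7.62% and 6.60% in A375-GFP.

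H3 K27ac, a histone mark of active promoters and enhancers, was mapped in both lines and was not used to define the classes. The K27ac lists differed in length (58855 regions in SKMEL-147, 139985 in A375-GFP), so the A375-GFP list was also cut to 58855. Of regions in A375-GFP only, 18.0% (17.6 to 18.4) overlapped A375-GFP K27ac at equal K27ac length (28% as deposited) and 2.85% (2.68 to 3.03) overlapped SKMEL-147 K27ac. Of regions in SKMEL-147 only, 12.2% (12.0 to 12.4) overlapped SKMEL-147 K27ac and 5.40% (5.24 to 5.56) A375-GFP K27ac (9.69% as deposited). Over all line-only regions at equal K27ac length, the mark was thus more often that of the line in which the region was open. The contrast was larger at A375-GFP regions. With K27ac lists as deposited, the order turned among weak SKMEL-147 regions. In the weakest class, 3.79% of regions in SKMEL-147 only carried SKMEL-147 K27ac and 10.8% A375-GFP K27ac. In class 4 of 10 these shares were 7.81% and 8.57%. In the strongest class, 62.9% of line-only regions in SKMEL-147 and 67.1% in A375-GFP carried K27ac of their own line as deposited. Of the shared regions of that class, 54.0% in the SKMEL-147 list and 76.5% in the A375-GFP list did.

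Regions in A375-GFP only were listed more often in the 2 other melanoma lines. The ATAC list of 501mel overlapped 29.1% (28.7 to 29.6) of them and 14.2% (14.0 to 14.5) of regions in SKMEL-147 only. That of SKMEL-5 overlapped 14.8% and 5.35%. Both lists overlapped 11.3% of regions in A375-GFP only, 3.59% of those in SKMEL-147 only and 38.8% of shared SKMEL-147 regions. At equal length, 501mel or SKMEL-5 overlapped 35.1% of regions in A375-GFP only and 19.1% of those in SKMEL-147 only. Regions in A375-GFP only were wider (median 463 bp against 232 bp as deposited), and the part of width in these shares was not tested.

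CTCF, the insulator protein, was mapped in 501mel and SKMEL-5. A CTCF region of either line overlapped 39.2% (38.9 to 39.5) of shared SKMEL-147 regions, 11.0% (10.8 to 11.2) of those in SKMEL-147 only and 11.9% (11.6 to 12.3) of those in A375-GFP only. HA-tagged HOXD13, mapped in A375, overlapped 8.34% of shared SKMEL-147 regions, 3.22% of those in SKMEL-147 only and 6.68% of those in A375-GFP only.

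**Figure D2:**
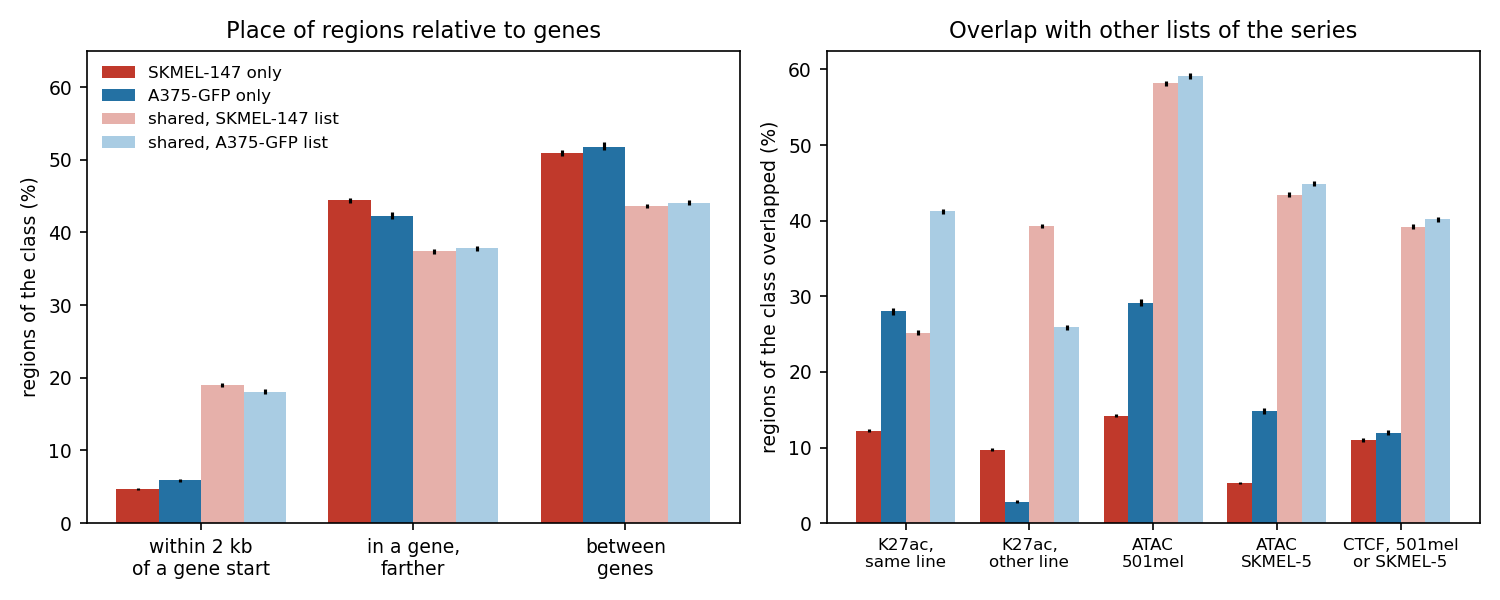
Left, percent of the regions of each class within 2 kb of a gene start, inside a gene but farther from a start, or between genes; right, percent overlapped by other lists of the series, as deposited, with 95% Wilson intervals. Line-only regions sit at 4.64% and 5.88% near starts against 19.0% and 18.1% of shared regions, and 501mel ATAC overlaps 29.1% of A375-GFP-only against 14.2% of SKMEL-147-only regions.

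The 10 regions of highest fold in SKMEL-147 only ranged from 37.9 to 55.0. The strongest, at chr17:22521356-22521557, lay between genes 828934 bp from KCNJ18, an inward-rectifier potassium channel, and the next (48.1), at chr13:109424128-109424339, lay 362349 bp from IRS2, an adaptor of the insulin receptor. Both were also in the 501mel and SKMEL-5 lists, as was the third (40.7), inside LOC102724250 on chromosome 1. Of the ATAC lists, only that of A375-GFP lacked these regions. Whether that list was made differently there was not tested. Others lay inside LRP1B, a lipoprotein receptor family member (38.8), WDFY3, a scaffold of selective autophagy (38.4), and NAV3, a microtubule-binding neuron navigator (38). The WDFY3 region and a region 56055 bp from SH3GLB1 (39.1) also carried SKMEL-147 K27ac. Each of the 10 was also present in the SKMEL-147 list at equal length.

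The 10 regions of highest fold in A375-GFP only ranged from 20.8 to 24.3. The strongest lay inside SYT14, a synaptotagmin, at chr1:210052076-210052659, with A375-GFP K27ac. Others lay 96769 bp from DSC3, a desmosomal cadherin (21.5), inside DHRSX, a dehydrogenase gene (20.8), and 83038 bp from HNF4G, a nuclear receptor (22.4). A375-GFP K27ac overlapped 5 of the 10 and SKMEL-147 K27ac overlapped 0. The list of 501mel held 7 of them and that of SKMEL-5 held 5. Of the 10 in SKMEL-147 only, those lists held 6 and 3.

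Most promoters were open in both lines. A gene start was called open when a region overlapped the 1 kb either side of it, and 13811 of 19974 protein-coding genes (69.1%) were open in both, 4325 in neither, 813 (4.07%) in SKMEL-147 only and 1025 (5.13%) in A375-GFP only. At equal length 484 (2.42%) were open in SKMEL-147 only and 1495 (7.48%) in A375-GFP only. For 4162 genes, those of chromosome 8 and SOX10 among them, no start was listed and both gene ends were used. Of the genes described below as open in 1 line, apart from the strongest 10 of each line, CCL5, LIF, IDO1, ALX4, EN1, HOXC12, PTPRN2, FAP, KRT1, KRT14, MRC1, APOA1 and NEFM were judged by their ends.

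At genes open in SKMEL-147 only, 71 of 813 (8.73%, 6.98 to 10.9) had SKMEL-147 K27ac at the start. A375-GFP K27ac lay at 106 (13.0%, 10.9 to 15.5) as deposited and at 57 (7.01%, 5.45 to 8.98) at equal K27ac length, so the order of the lines turned with the length of the K27ac lists, and at equal K27ac length the intervals overlapped. At genes open in A375-GFP only, 125 of 1025 (12.2%, 10.3 to 14.3) had A375-GFP K27ac at equal K27ac length (19.7% as deposited) and 20 (1.95%, 1.27 to 2.99) SKMEL-147 K27ac. Of genes open in both lines, 28.3% had SKMEL-147 K27ac and 60.0% A375-GFP K27ac at equal K27ac length.

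Among genes open in SKMEL-147 only, the strongest regions at a start or, where none was listed, at a gene end were at LOC102724250 (fold 40.7), HLA-DRB1 (34.8), DHRS9 (34.6), KLRC2 (31.7) and C18orf63 (30.3). DHRS9 is a retinol dehydrogenase, and 13 SKMEL-147 against 4 A375-GFP regions lay in it and 50 kb either side. HLA-DRB1, an MHC class II chain, had 12 against 0, and lies in the MHC, where the A375-GFP list is depleted as described above. S100A12, a calgranulin (29.2), ZBED2, a zinc-finger repressor of interferon targets (27.7), ACMSD, an enzyme of tryptophan breakdown (30.2), PIWIL2, a germline PIWI protein (27.4), and GTSF1L (27.3) completed the 10. For LOC102724250, KLRC2, ACMSD, PIWIL2 and GTSF1L the region lay at a gene end that may not be the start. All 10 held their class at equal length. SKMEL-147 K27ac lay at the starts of HLA-DRB1, C18orf63 and ZBED2 and at a gene end of ACMSD and PIWIL2. The K27ac region of HLA-DRB1 was weak (fold 2.51, −log10 q 1.89) and lay 625 bp from the start.

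Among genes open in A375-GFP only, 1 region (fold 19.5) lay at both GOLPH3L, a Golgi protein, and HORMAD1, a meiotic protein of the cancer-testis group. The HORMAD1 and ZNF233 matches were to a gene end. Zinc-finger genes followed with ZNF582 (18.2), ZNF233 (16.6) and ZNF90 (16.3). PCDHGA7, a clustered protocadherin (18.0), ANGPTL5 (17.6), FSIP2, a sperm flagellum protein (17.0), LOC107985043 (15.9) and MS4A13 (15.8) completed the 10. A375-GFP K27ac lay at the starts of PCDHGA7, ANGPTL5 and LOC107985043. SKMEL-147 K27ac lay at 0 of the 10.

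The promoter sequences of the classes differed in base content and motifs. Of 22132 listed starts, 804 had a region of SKMEL-147 only over the 300-bp window (250 bases before to 50 after the start) and 1168 one of A375-GFP only. The median window held 7 CG dinucleotides at SKMEL-147-only starts, 17 at A375-GFP-only starts, 27 at starts open in both and 5 at starts open in neither. The AP-1 letters stood in 12.9% (10.8 to 15.4) of SKMEL-147-only starts, 6.51% (5.23 to 8.07) of A375-GFP-only starts, 4.92% of starts open in both, 7.78% of starts open in neither and 6.15% of all starts. The TEAD letters stood in 17.4% (14.9 to 20.2), 12.8% (11.0 to 14.8), 10.5%, 15.1% and 12.2%. At equal length the AP-1 shares were 13.6% (11.0 to 16.8) and 6.58% (5.44 to 7.94). The higher AP-1 share at SKMEL-147-only starts was thus above that of both open and closed starts, whereas their TEAD share had an interval that overlapped that of closed starts.

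The CATGTG core stood in 12.3% (10.2 to 14.8) of SKMEL-147-only starts, 9.08% (7.56 to 10.9) of A375-GFP-only starts, 6.17% of starts open in both, 14.2% of closed starts and 8.93% of all. TATAAA stood in 14.7% (12.4 to 17.3) and 7.71% (6.31 to 9.38), against 4.80% of starts open in both, 18.7% of closed starts and 9.46% of all, a wider range than that of AP-1. The TGACGT core stood in 6.59% and 4.88%, against 11.5% of starts open in both, 4.75% of closed starts and 8.92% of all. The kappaB motif stood in 11.4% (9.42 to 13.8) and 14.4% (12.5 to 16.5), against 14.0% of starts open in both, 9.76% of closed starts and 12.7% of all. Starts of 1 gene can share a window, some letters recur by base content, and a match is not a bound site.

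**Figure D3:**
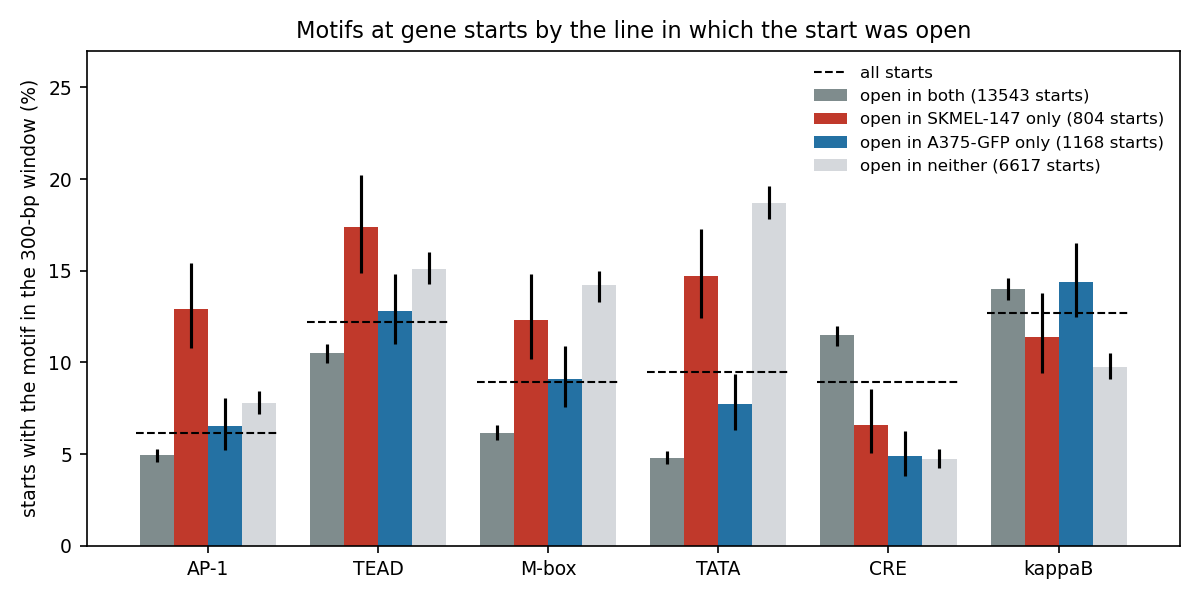
Percent of gene starts whose 300-bp promoter window holds each motif (horizontal axis), for starts open in both lines, in SKMEL-147 only, in A375-GFP only and in neither, with 95% Wilson intervals; dashed lines give all 22132 starts. The AP-1 bar of SKMEL-147-only starts stands at 12.9%, above the 4.92 to 7.78% of the other classes.

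MITF, the master regulator of melanocytes, was open in both lines at its first listed start and differed at an inner one. At the start at 69739464 the regions had a fold of 23.7 in SKMEL-147 and 9.57 in A375-GFP. Folds given for both lines, here and below, are not comparable between the lists. At the start at 69936592, which gives the melanocyte isoform, A375-GFP had a region at chr3:69936133-69936718 (fold 6.40) and K27ac 915 bp downstream, and SKMEL-147 had neither within 1 kb. The gene and 50 kb either side held 27 SKMEL-147 and 26 A375-GFP regions as deposited, 22 and 26 at equal length.

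The melanocyte lineage factors leaned to A375-GFP. At equal length 7 of 9 had more A375-GFP regions and 1 more SKMEL-147 regions, with a median difference of −3 regions per gene, where all protein-coding genes had a median of 0, with 8143 higher in SKMEL-147 and 8747 higher in A375-GFP. As deposited the median difference was 2 against 3 for all genes. TFAP2B, a neural crest AP-2 factor, had its start open in A375-GFP only, under an A375-GFP K27ac region of fold 53.7, with 1 against 8 regions around it. PAX3, an upstream activator of MITF, was the exception with 10 against 4. SOX10, judged by its gene ends, and KIT, LEF1, EDNRB and TFAP2A were open in both lines, and IRF4 in neither.

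Pigment genes had 10 of 16 starts open in neither line, TYR, TYRP1 and MLANA among them, where 21.7% of all genes were. Of the 16, 5 were judged by their gene ends. Neither list thus showed the open pigment promoters of a fully melanocytic cell. DCT, dopachrome tautomerase, was open in A375-GFP only (fold 4.15) with 4 against 14 regions at equal length, and without K27ac at the start in either line. In the neural crest-like list, 11 of 14 starts were open in both lines, where 69.1% of all genes were. NGFR, ERBB3, SOX2 and SOX9 were among them (by gene ends except SOX2). RXRG, a retinoid receptor used as a marker of that state, was open in A375-GFP only (fold 8.61), with A375-GFP K27ac.

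Genes of the undifferentiated and invasive state leaned to SKMEL-147. All 25 were open in both lines as deposited, where 69.1% of all genes were, AXL, WNT5A, TNC and EGFR among them. At equal length 18 had more SKMEL-147 and 6 more A375-GFP regions (median difference 2). The largest was at NRG1, the neuregulin ligand of ERBB3, with 49 against 19 regions; its start left the SKMEL-147 list at equal length. TEAD1 had 35 against 24 and WNT5A 17 against 11, whereas THBS1 had 7 against 14. EGFR was open in both at its first start (fold 18.5 and 12.9), and at the second, at 55109839, in SKMEL-147 only (8.97), with SKMEL-147 K27ac. Of these 25 genes 1 in each direction passed the rule of at least 2 times as many regions and 3 more. Of all 19974 genes, 975 (4.88%) passed it toward SKMEL-147 and 1135 (5.68%) toward A375-GFP. Summed over the 25 genes there were 414 SKMEL-147 and 341 A375-GFP regions. NRG1 and TEAD1 gave much of this excess, with differences of 30 and 11.

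Of 22 chemokine and cytokine genes, 4 had the start open in SKMEL-147 only (4.07% of all genes did) and 1 in A375-GFP only (5.13% of all genes). IL1A and IL1B, the neighbouring interleukin-1 genes, had SKMEL-147 regions of fold 23.8 and 14.0 at their starts, with SKMEL-147 K27ac at both and no A375-GFP ATAC or K27ac region within 1 kb. CXCL5, a neutrophil chemokine, had 12.9, and CCL5, a T cell chemokine, 4.60, the latter lost at equal length. LIF was open in A375-GFP only (4.48). CXCL1 (12 against 5 regions at equal length), CXCL6 (13 against 5) and CCL2 (11 against 4) also had more SKMEL-147 regions, and CX3CL1 fewer (6 against 13). At equal length 4 of the 22 passed the 2-fold rule toward SKMEL-147 and 3 toward A375-GFP. In the 501mel and SKMEL-5 lists IL1A, IL1B and CXCL5 had no region at the start.

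**Figure D4:**
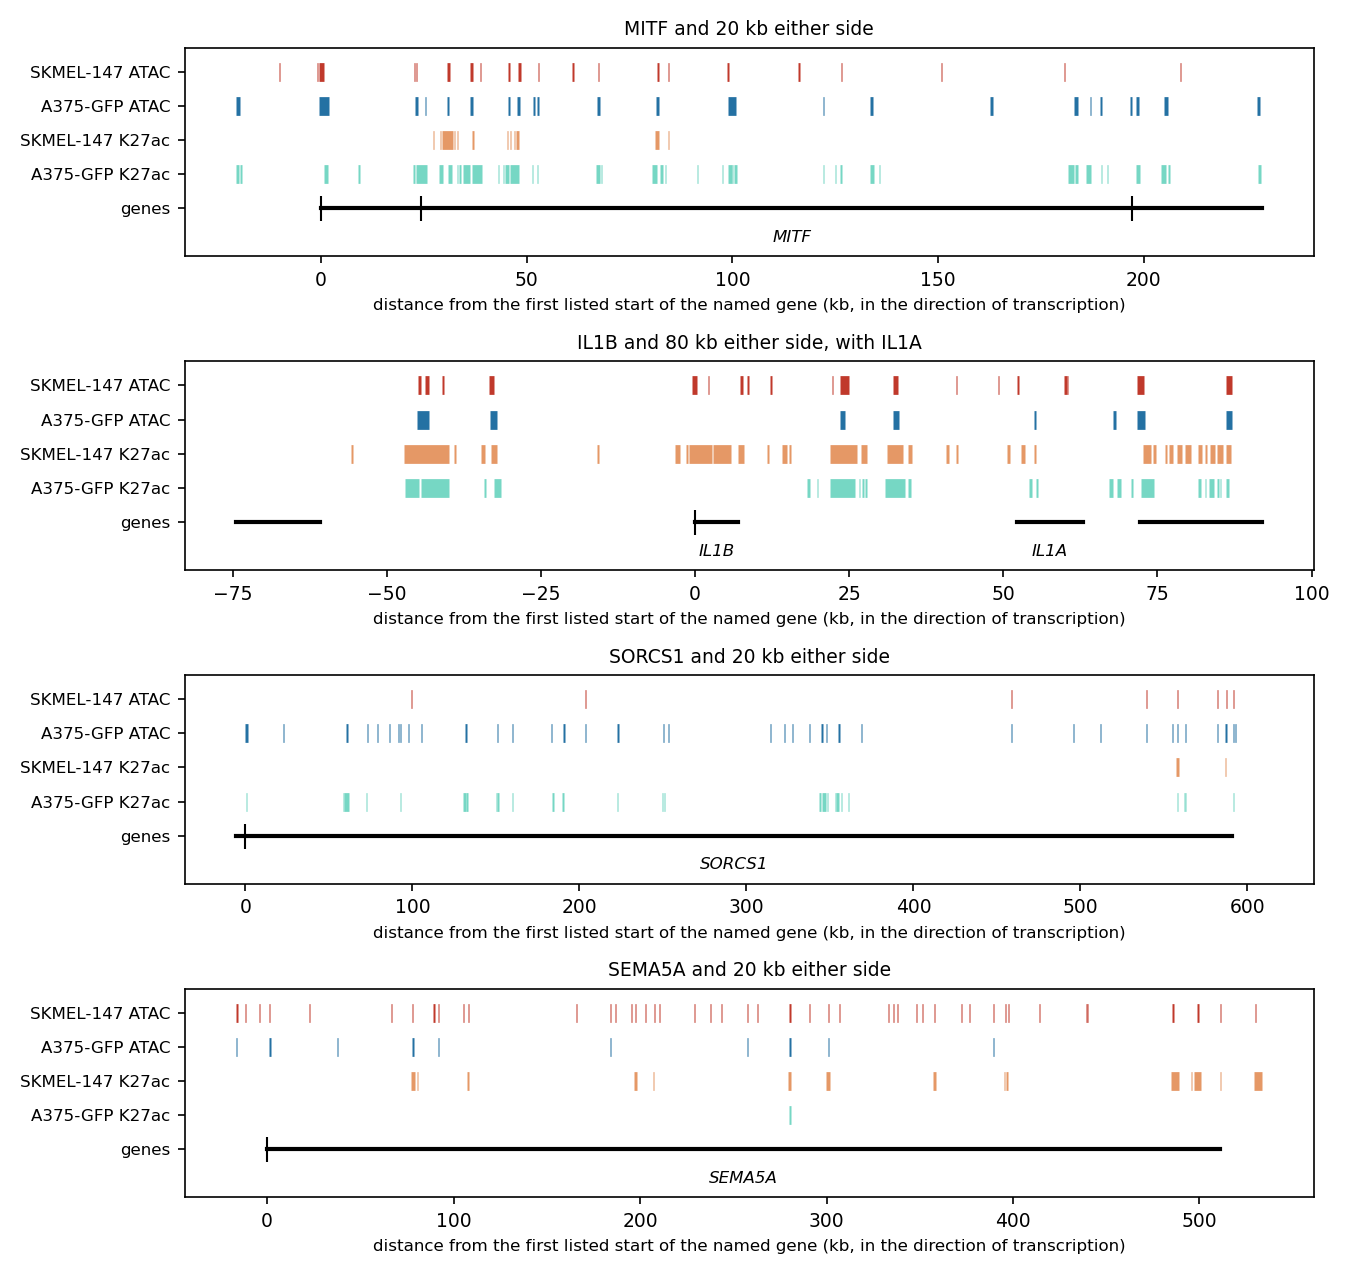
Regions of the ATAC and K27ac lists of both lines at 4 loci, drawn by distance in kb from the first listed start in the direction of transcription; black bars are genes and ticks listed starts of the named gene. SKMEL-147 has ATAC and K27ac regions over the IL1B start and A375-GFP none, A375-GFP has a region at the innermost MITF start, and the SORCS1 and SEMA5A genes are filled in opposite lines.

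Immune checkpoint genes had 12 of 15 starts open in both lines and 3 in SKMEL-147 only, where 69.1% and 4.07% of all genes were. These were HHLA2, a B7 family ligand (8.04), LGALS9, galectin-9 (10.7), and IDO1, a tryptophan-degrading enzyme (3.91), the last lost at equal length. At that length 2 of the 15 were open in SKMEL-147 only and 2 in A375-GFP only. CD274, which encodes PD-L1, was open in both with 11 against 5 regions around it and with K27ac at the start in SKMEL-147 and none in A375-GFP. Antigen presentation genes outside the MHC were open in both lines at 13 of 13 starts. Of the adenosine pathway, 12 of 15 were open in both, and ENTPD3, an ectonucleotidase, in A375-GFP only (3.49).

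Of 26 angiogenesis genes, 2 had the start open in SKMEL-147 only and 1 in A375-GFP only, where 4.07% and 5.13% of all genes did. THBS2, an anti-angiogenic thrombospondin (5.59), and TIE1, an endothelial receptor (6.21, lost at equal length), were open in SKMEL-147 only, and FLT1, a VEGF receptor (5.78), in A375-GFP only. At equal length 1 of the 26 was open in SKMEL-147 only and 3 in A375-GFP only. PDGFC (27 against 11 regions), NRP2 (27 against 18) and EPAS1 (19 against 11) had more SKMEL-147 regions at equal length. Among receptor tyrosine kinases FGFR2 was open in A375-GFP only, with folds of 13.6 and 8.35 at its listed starts. Of the 22 kinases 20 were open in both lines, where 69.1% of all genes were. At equal length 18 were open in both and 3 in A375-GFP only. NTRK3 (13 against 25) and IGF1R (29 against 40) had more A375-GFP regions, and ROR1 (50 against 39) and ERBB4 (34 against 24) more SKMEL-147 regions. Semaphorin 3 and plexin genes were open in both at 11 of 12 starts, with PLXNA2 at 25 against 37 regions and SEMA3C at 21 against 14.

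Line-only HOX starts as deposited were 1 of 11 (HOXA), 1 of 9 (HOXC), 1 of 9 (HOXD) and 0 of 10 (HOXB). Of all genes, 4.07% were open in SKMEL-147 only and 5.13% in A375-GFP only. HOXA7 (10.3) and HOXD4 (11.4) were open in SKMEL-147 only and HOXC12 (8.09) in A375-GFP only, and each kept its class at equal length. HOXD13 was open in both (5.47 and 4.95), with 13 against 12 regions around it at equal length and K27ac from A375-GFP 629 bp past the start. The whole HOXD cluster held 18 SKMEL-147 and 13 A375-GFP regions as deposited (15 and 13 at equal length) and HOXA held 21 and 13 (16 and 13). Of 32 limb development genes, 2 were open in SKMEL-147 only, LHX2 (16.4) among them. In A375-GFP only 2 were open as deposited, ALX4 (11.1) and EN1 (5.92), and 4 at equal length. TBX5 had 8 against 1 regions and a start closed in both lines.

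Genes that most cells use were open in both lines, where 69.1% of all genes were. This held at 26 of 26 ribosomal protein genes, 15 of 15 housekeeping genes and 13 of 13 cohesin genes with CTCF. MAPK feedback genes were open in both at 18 of 18. EMT transcription factors were open at 10 of 10 starts and AP-1 and TEAD-YAP factors at 18 of 20, with MAF at 16 against 29 regions at equal length and SNAI2 at 15 against 8. Of matrix genes 24 of 27, and of cell cycle genes 15 of 18, were open in both. MYCN had 2 against 13 regions and CDKN1A 14 against 7. CDKN2A was open in both lines (19.7 and 11.7) and CDKN2B in neither.

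Keratinocyte markers were open in A375-GFP only at 4 of 12 genes, where 5.13% of all genes were, DSC3 (10.0), KRT1 (4.02), KRT14 (4.06) and LORICRIN (3.96), and in SKMEL-147 only at 0. Fibroblast markers gave FAP in A375-GFP only, and T cell markers gave no gene in 1 line. In SKMEL-147 only, where 4.07% of all genes were open, myeloid markers gave 2 of 12, CD14 (7.13) and MRC1 (14.7). Endothelial markers gave 2 of 12 there, EGFL7 and TIE1, both lost at equal length. Hepatocyte markers gave 1 of 12, APOA1 (11.9). Of neuronal markers, MAP2 (10.1) was open in SKMEL-147 only, and NEFM (14.0) and ELAVL4 (5.63) in A375-GFP only. Of these 13 genes, K27ac was listed at a gene end of KRT14 in A375-GFP and of FAP in both lines.

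**Figure D5:**
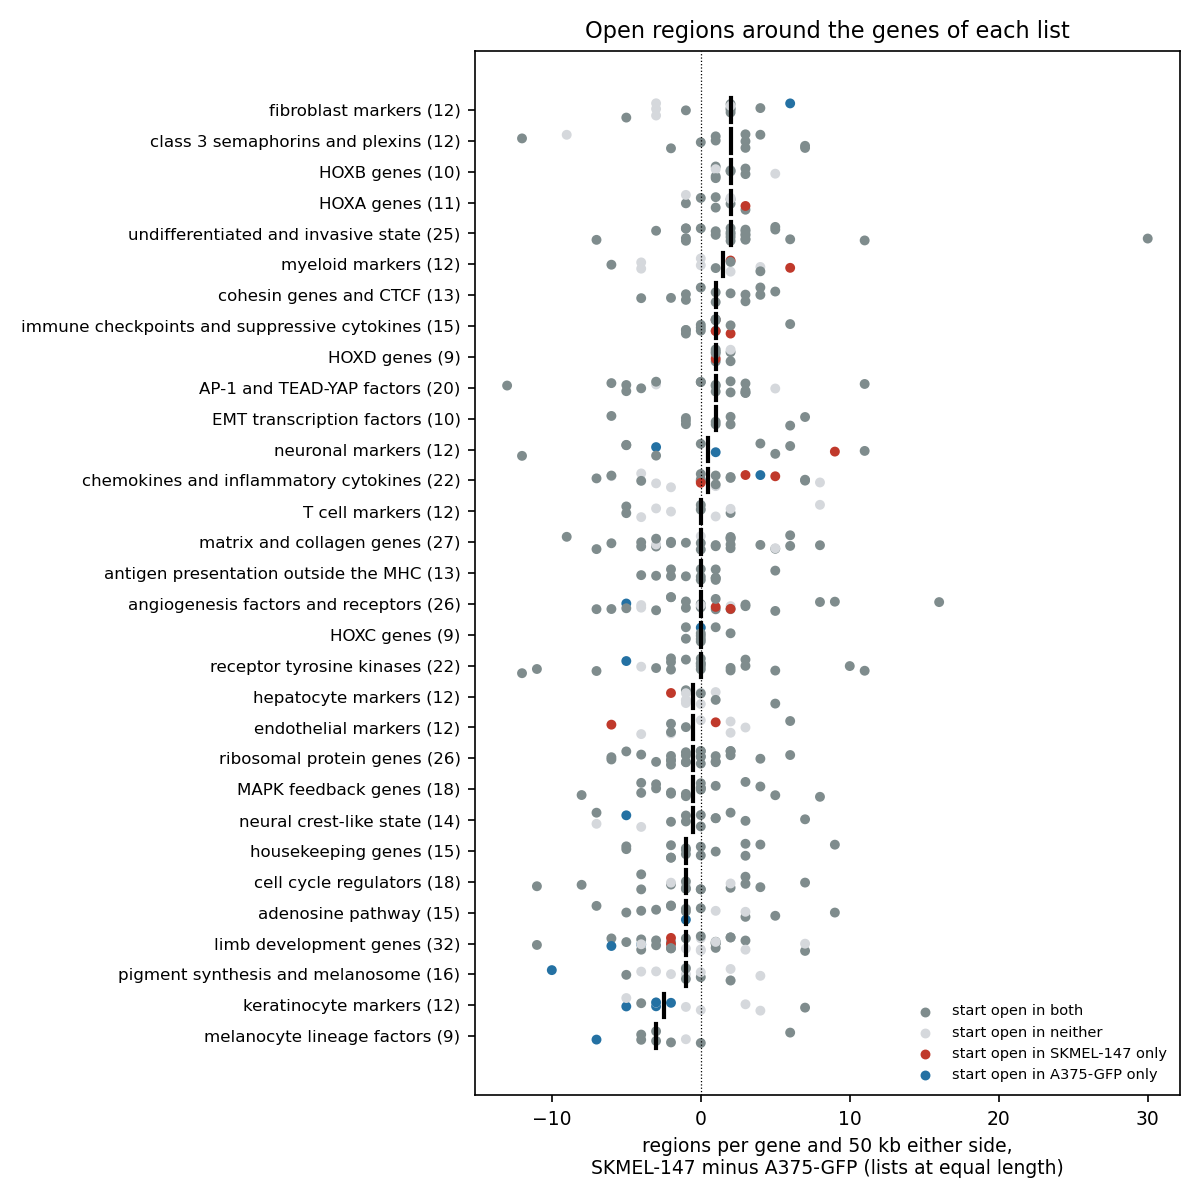
For each gene of 31 lists, the number of regions in the gene and 50 kb either side in SKMEL-147 minus that in A375-GFP, at equal length (horizontal axis); colour gives the class of the start as deposited, black bars the list medians, and numbers in brackets the genes per list. Medians run from −3 (melanocyte lineage factors) to 2 (undifferentiated and invasive state among them).

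The largest differences were at long genes with many regions in 1 line. SEMA5A, a guidance semaphorin, held 52 SKMEL-147 and 12 A375-GFP regions at equal length within the gene and 50 kb either side, of which 43 were in SKMEL-147 only. FOXP1, a forkhead repressor, held 43 against 9, CTNND2, delta-catenin, 46 against 16, and TAS2R1, a taste receptor gene near SEMA5A, 26 against 2. LPP (69 against 43), RANBP2 (80 against 54), CTNNA2 (41 against 16), PDE4D (93 against 69) and ASTN2 (44 against 21) followed. The starts of SEMA5A, FOXP1 and CTNND2 were open in both lines, so the difference lay away from the promoter.

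In A375-GFP, SORCS1, a sorting receptor, held 51 against 11 SKMEL-147 regions, with its start open in A375-GFP only. The only K27ac region listed within 1 kb of that start was from A375-GFP and lay 437 bp away. It was weak, with a fold of 2.50 where the median of that K27ac list was 3.99. PTPRN2, a phosphatase-like protein of secretory granules, held 63 against 25, WWOX, a tumour suppressor at a fragile site, 43 against 7, and ELMO1, a regulator of Rac, 46 against 11. RYR2 (65 against 30), CNTNAP2 (52 against 18), ATP10A (35 against 4), SOX5 (63 against 32) and SORCS2 (57 against 28) followed. The starts of PTPRN2, RYR2 and ATP10A were also open in A375-GFP only. As deposited, with the longer SKMEL-147 list, SORCS1 still had 51 against 19 and ATP10A 35 against 7.

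Some stretches were empty in 1 list. In the 1-Mb bin from 7 to 8 Mb of chromosome X, which holds PUDP, STS, VCX and PNPLA4, SKMEL-147 had 35 regions and A375-GFP 0, and SKMEL-147 had 7 K27ac regions and A375-GFP 0. STS, steroid sulfatase, had a region of fold 15.3 at its start in SKMEL-147. On chromosome 2 the bin from 80 to 81 Mb (CTNNA2 and LRRTM1) had 17 against 0 and K27ac 6 against 0, and that from 115 to 116 Mb (DPP10) 33 against 0. The bin from 94 to 95 Mb of chromosome 6 had 0 against 13. The 501mel list held regions in each of these 4 bins, from 4 to 21. Further bins were empty in the A375-GFP ATAC list. On chromosome 1 the bins from 123 to 124 and 124 to 125 Mb had 11 and 33 SKMEL-147 regions. The bin from 47 to 48 Mb of chromosome 5 had 12, and that from 25 to 26 Mb of chromosome 19 had 14. No gene was listed in these bins, where 501mel had 20, 32, 14 and 23 regions and SKMEL-5 4, 7, 6 and 4. A bin of chromosome 8 had 10 and another of chromosome X 11. Whether DNA was lost or the lists were made differently in any of the bins named was not tested.

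Over whole chromosomes the ratio of SKMEL-147 to A375-GFP regions at equal length went from 0.817 on chromosome 7 to 1.24 on chromosome 14. DNA copy number was not tested.

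A few genes switched start. Of 4036 genes with more than 1 listed start, 37 had 1 start open in SKMEL-147 only and another in A375-GFP only, and 24 of these also did at equal length. RTN4, which encodes the myelin protein Nogo, had the start at 55010272 open in SKMEL-147 only and that at 55137831 in A375-GFP only, 127559 bp apart. PHACTR1, an actin regulator, switched between starts 295947 bp apart, and PRKACB, a catalytic subunit of protein kinase A, between starts 20034 bp apart. These 3 were chosen as examples after their values were seen.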

How the data were processed

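Open chromatin was compared between 1 SKMEL-147 and 1 A375-GFP library, with K27ac, CTCF, HOXD13-HA and other ATAC lists of the series as further readouts. The submitters' processing notes name MACS2, Bowtie2, Trim Galore, deepTools and SAMtools and the build hg38. The versions, settings and control libraries are not given in the sources used here. The deposited region lists give the authors' fold enrichment (a ratio over the caller's background), a −log10 q and a score per region, and these served only to rank and filter within a list. The lists hold no counts, so depth is unknown. Summits were taken from the region lists.

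Regions on the autosomes and X were kept. Overlap of at least 1 bp counted as shared. Equal length kept the regions of highest −log10 q and so shortened the SKMEL-147 list only. Starts came from the RefSeq promoter table (GRCh38, 15812 of 19974 protein-coding genes, 22132 starts), and both gene ends stood in for the other 4162 genes. Motifs were searched on both strands. No genome sequence was used, so regions away from starts were not searched. Shares carry Wilson intervals, and with 1 library a line no test was possible. Functions were tested on simulated intervals. Scripts used Python 3.11.15 with numpy 2.4.6 and pandas 2.3.3.

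Named were, per line, the 10 line-only regions and 10 line-only starts of highest fold, the 10 genes of largest excess of regions (gene and 50 kb either side), in each of 31 gene lists the line-only starts and up to 4 genes of largest excess, and HOXD13. A few genes that this rule names are not reported here. The comparison and the lists were chosen with earlier results of these data known. The promoters shown and the motifs searched were chosen after the start classes were seen.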

Additional observations from a re-analysis of the deposited data

Results flagged for a closer look

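The A375-GFP ATAC list held 2747 regions on alternative sequences of the assembly, which entered no comparison, whereas the SKMEL-147 list held none. Of these, 876 came from chromosome 6, 332 from chromosome 17 and 206 from chromosome 15. They drew attention as signal outside the compared chromosomes, and their part in the regions missing from the primary chromosomes was not tested outside the MHC.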

How the results depend on the processing

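Of 60 recomputed values behind the comparisons, 25 stayed within counting error or, for counts of genes, within 1.5 times, and 35 moved. The share in SKMEL-147 only was 46.9% as deposited, 37.4% at equal length, 51.6% with −log10 q held to 10 or more, 60.9% with 50% overlap of both regions, 49.5% with 500-bp summit windows and 40.0% with such windows at equal length. The share in A375-GFP only was 29.7%, and under the same settings 38.9%, 24.7%, 46.1%, 30.9% and 40.1%. The order of the lines thus turned at equal length, and the shares differed by less than 2 percentage points there. The share near a start in SKMEL-147 only was 4.64%, and 4.27% at equal length, 7.03% with 50% overlap, 6.60% with summit windows, 6.68% with windows at equal length, 2.35% within 1 kb and 9.84% within 5 kb. In A375-GFP only it was 5.88%, and 6.40%, 7.54%, 6.97%, 7.25%, 3.95% and 9.99%. For shared regions it was 19.0%, and 20.2% at equal length, 22.8% with −log10 q held to 10 or more, 20.4% with 50% overlap, 17.8% with summit windows, 16.2% within 1 kb and 23.8% within 5 kb. It stayed above both line-only shares under each setting.

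Genes open in SKMEL-147 only numbered 813 and 484 at equal length, and the other gene counts stayed within 1.5 times. Counting only genes with a listed start, an alternative added after seeing the data, gave 573 and 736. Under K27ac, regions in SKMEL-147 only moved from 12.2% to 17.5% with ATAC lists at equal length (own line), and from 9.69% to 5.40% (equal K27ac length) and 9.96% (equal ATAC length) for the other line. Regions in A375-GFP only moved from 28% to 18.0% and 28.6% (own line) and from 2.85% to 3.46% (other line, equal ATAC length). The ATAC lengths were added after seeing the data here.

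List medians depended on list length, since as deposited the median over all genes was 3. Medians changed sign as deposited for melanocyte lineage factors (2), pigment synthesis (2), the neural crest-like state (2.5), MAPK feedback (1.5), limb development (1.5), adenosine (5), cell cycle (2), ribosomal protein (2), housekeeping (2), endothelial (5) and hepatocyte genes (2). With a 10-kb window they did so for endothelial (1) and neuronal (−0.5) and with 100 kb for HOXA genes (−1). The cause was not tested. The depth of the libraries is unknown, so a region absent from a list is not shown to be closed. No paired analysis was possible because each line had 1 library.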
